A study of Mus musculus with 18 samples.

Results

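Mouse mammary organoids cultured with Torin 1 were compared with organoids cultured with the DMSO vehicle in the arm named J6, which holds 6 of the 18 libraries of the series. The members are the 3 Torin and the 3 DMSO libraries whose count columns carry that name. All 6 came from wild-type C57BL/6 mice, nulliparous and about 15 weeks old. Epithelial cells were purified from the mammary glands of 3 such mice, grown as organoids in Matrigel droplets in a mammary epithelial medium, and collected after 18 days of culture. The Torin group received 100 nM of the inhibitor and the DMSO group the vehicle alone. The sample titles and the treatment protocol give 6 days of treatment for this arm, while the series design gives 12 days for it, so the arm is called by its name and no statement rests on the length of treatment. The labels do not say whether the 3 replicates of a group came from separate mice, cultures or extractions, so p-values measure the spread between these libraries, which may be technical.

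Torin 1 occupies the ATP pocket of mTOR, the kinase at the core of the complexes mTORC1 and mTORC2. mTORC1 links amino acids, insulin-like signals and oxygen to protein synthesis, ribosome production, glycolysis and lipid synthesis, partly through the transcription factors HIF1, MYC and SREBP, and it restrains autophagy and lysosome genes through TFEB and its relatives. mTORC2 acts on AKT and SGK1. In the mammary gland the epithelium has an inner luminal layer, with progenitor and hormone-sensing cells, and an outer basal layer of contractile cells marked by keratins 5 and 14.

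The libraries held 28374852, 25999387 and 27540703 counts in the Torin group, against 25564082, 23239364 and 27399920 counts in the DMSO group. Levels below are CPM, counts scaled to a library total of 1000000 after TMM adjustment, which allows comparison between libraries but not between genes of different length. Torin replicate 3 stood apart from the other 5 libraries. Its median Spearman correlation with the other Torin libraries was 0.964, against 0.979 and 0.976 for Torin replicates 1 and 2, and 0.992 for each DMSO library. Of the genes tested, 340 were at least 4-fold above both other Torin libraries in replicate 3 alone (after adding 1 CPM), and 0 were as far below them. For Torin replicates 1 and 2 no gene was as far above or below the rest of the group. For each DMSO library at most 1 gene was as far above and at most 3 were as far below. Cebpb, a transcription factor of secretory and immune genes, had 10.5, 11.0 and 1637 CPM in Torin libraries, against 14.6, 13.2 and 11.2 CPM in DMSO libraries. The Notch target Hes1 had 15.5, 9.65 and 309 CPM in Torin libraries, against 18.6, 17.7 and 18.8 CPM in DMSO libraries, and the lysosomal membrane protein Lamp1 had 89.7, 108 and 873 CPM, against 78.0, 77.5 and 68.7 CPM. These 3 genes were picked after their values were seen, and none passed the test. Without replicate 3 their log2 fold changes were -0.26, -0.54 and 0.41, with Hes1 called lower and Lamp1 called higher. Values without Torin replicate 3 are given below beside list counts and named genes that depend on it.

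**Figure D1:**
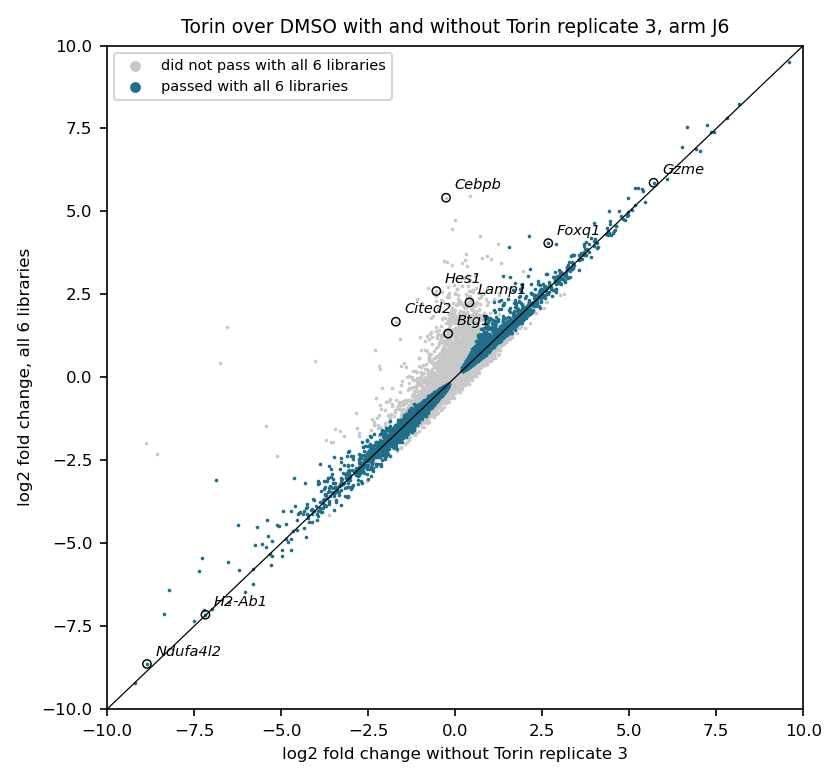
Log2 fold change of Torin over DMSO with all 6 libraries (vertical axis) against that without Torin replicate 3 (horizontal axis), 1 point per gene tested in both, with coloured points for genes that passed with all 6. Called genes such as Ndufa4l2, H2-Ab1 and Gzme lie near the diagonal, while Cebpb, Hes1, Lamp1, Btg1 and Cited2, chosen after their values were seen as high in replicate 3 only, lie above it.

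Of 16936 genes tested with edgeR's quasi-likelihood test, 2617 rose and 3070 fell with Torin at a Benjamini-Hochberg adjusted p under 0.05. These are 15.5% and 18.1% of the genes tested, and 5.44% rose and 8.57% fell at least 2-fold. The shares of 15.5% and 18.1% are the reference for each list count below that uses all 6 libraries of arm J6. For 50.4% of genes the Torin and DMSO values were fully separate, with all Torin libraries above all DMSO libraries for 24.7% and below them for 25.7%. The median log2 fold change over all genes was 0.04. Without Torin replicate 3, 3580 of 17627 genes rose and 3872 fell. Of the calls made with all 6 libraries, 2566 rises and 2988 falls were kept without it, and none turned direction. Leaving out any DMSO library lowered the count of rises, to 1711, 1695 and 1615 without DMSO replicates 1, 2 and 3. In bulk RNA, fewer cells of a type and less RNA per cell cannot be told apart, for these counts and for all values that follow.

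HIF-responsive genes, which hypoxia-inducible factor switches on in low oxygen, and immune genes were among the 15 largest falls, counted over genes that averaged at least 5 CPM and whose groups did not overlap. Ndufa4l2, a mitochondrial protein induced by HIF1 that lowers complex I activity, had 0.338, 0.149 and 0.380 CPM in Torin libraries, against 108, 136 and 108 CPM in DMSO libraries (log2 fold change -8.64, SE 0.27, adjusted p = 2.93e-05 by edgeR's quasi-likelihood test). The adenosine receptor Adora2a had 5 counts over the 3 Torin libraries, against 796 over the 3 DMSO libraries, a ratio of 0.00572 with a 95% counting interval of 0.00185 to 0.0134. Both were close to 0 in every Torin library and well above it in every DMSO library. H2-Ab1, the beta chain of an MHC class II molecule, had 0.542, 0.223 and 0.418 CPM with Torin, against 49.0, 70.6 and 52.2 CPM with DMSO (log2 fold change -7.16, SE 0.32). Gpr15lg, an epithelial ligand that attracts T cells, was at 0.203, 0.0372 and 0.190 CPM with Torin, against 14.8, 23.1 and 19.9 CPM with DMSO (log2 fold change -7.01, SE 0.43). The other large falls by the same rule covered several functions. They were Mgarp (-6.77), Ptgdr (-5.81), Slc16a3 (-5.78), the epidermal protease inhibitor Spink5 (-5.38), the fibrinogen chain Fgb (-5.34), the interferon-induced Ifit3b (-5.07) and Ifit3 (-4.51), Gpr35 (-4.93), the matrix protein Tgfbi (-4.86), the glycogen phosphorylase Pygl (-4.78) and Car9 (-4.63), each with its log2 fold change. Without Torin replicate 3 the falls of Ifit3, Ifit3b and Pygl were larger, at -5.69, -5.74 and -5.39. Fgb was abundant in DMSO libraries, at 936, 976 and 850.0 CPM, and had 21.5, 24.8 and 22.1 CPM in Torin libraries. For several of these genes, among them Ifit3 and Ifit3b, near-identical copies exist, and how the authors assigned shared reads is not given in the sources used here.

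The largest rises began from low levels in DMSO libraries. Krt4, a keratin of non-cornified stratified epithelia, had 1164 counts over the Torin libraries, against 6 over the DMSO libraries, a ratio of 177 with a 95% counting interval of 81.0 to 483. The serine protease genes Gzme and Mcpt8, known from killer lymphocytes and basophils, rose as well. Gzme had 15.7, 12.2 and 19.2 CPM in Torin libraries, against 0.352, 0.224 and 0.219 CPM in DMSO libraries (log2 fold change 5.86, SE 0.30). Mcpt8 had 56.1, 41.3 and 71.3 CPM, against 1.88, 0.760 and 0.802 CPM (log2 fold change 5.61, SE 0.41). Enpp2, the enzyme that makes lysophosphatidic acid, had 198, 202 and 157 CPM in Torin libraries, against 9.89, 6.88 and 3.86 CPM in DMSO libraries (log2 fold change 4.75, SE 0.35). Cyp2f2, a cytochrome P450 of airway secretory cells, had 196, 193 and 159 CPM, against 9.23, 9.66 and 8.24 CPM (log2 fold change 4.33, SE 0.12). The Torin and DMSO libraries did not overlap for any of these genes. Further rises by the rule were Soga3 (5.71), the secreted signal Bmp4 (5.04), the DNA exonuclease Trex2 (4.90), the transcription factors Eya1 (4.85), Sp5 (4.62), Foxa2 (4.51) and Foxq1 (4.04), the thyroid hormone activating deiodinase Dio2 (4.57), Msln (4.45) and the aspartoacylase Aspa (4.40). Foxq1 rested in part on Torin replicate 3, with 7.31, 5.74 and 37.8 CPM in Torin libraries, and its log2 fold change without that library was 2.67.

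**Figure D2:**
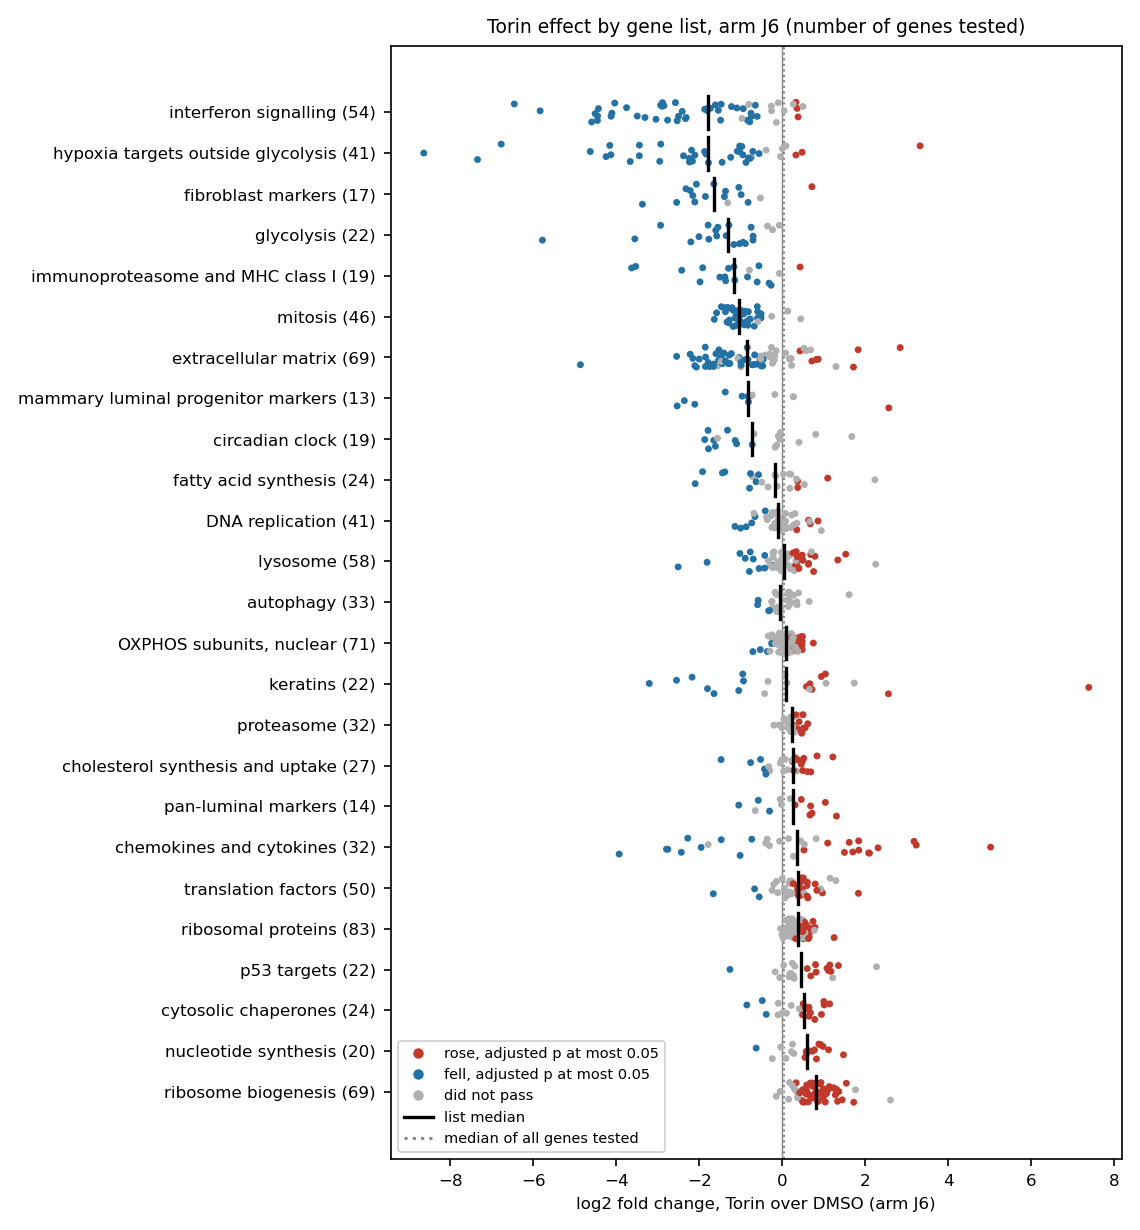
Log2 fold change of Torin over DMSO (horizontal axis) for the genes of 25 lists (vertical axis, number tested in brackets), 1 point per gene, coloured by call, with a black bar at each list median and a dotted line at the median of all genes. Interferon signalling, hypoxia targets and fibroblast markers have medians of -1.79, -1.78 and -1.65, and ribosome biogenesis has a median of 0.81.

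HIF-responsive genes were lower with Torin across most of the list. Of 41 HIF-responsive genes outside glycolysis, 33 fell and 3 rose, with a median log2 fold change of -1.78, beside 18.1% falling, 15.5% rising and a median of 0.04 over all genes tested. With Torin replicate 3 left out, 36 fell and 3 rose. This count, and those of glycolysis, ribosome biogenesis, mitosis, interferon, MHC class I, matrix and fibroblast genes below, moved by less than 1.5 times whichever library was left out.

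Among the HIF subunits and their regulators, 6 of 10 genes fell and 0 rose. Hif1a, the oxygen-regulated subunit, did not pass, at 180.3, 153 and 243 CPM in Torin libraries, against 197, 188 and 191 CPM in DMSO libraries (log2 fold change 0.00, SE 0.16). The Torin values lay on both sides of the DMSO values, and replicate 3 was the highest. Epas1, which encodes the related HIF2 subunit, fell to 59.98, 63.6 and 58.5 CPM in Torin libraries, against 93.0, 111 and 104 CPM in DMSO libraries (log2 fold change -0.76, SE 0.09). Their partner Arnt fell by 0.45 on the log2 scale, and Vhl, the ubiquitin ligase subunit that marks HIF for destruction, fell by 0.63. Of the prolyl hydroxylases that mark HIF in oxygen, Egln3 and Egln1 are HIF targets themselves, while Egln2 did not pass (log2 fold change -0.02). Egln3 had 27.6, 27.8 and 27.2 CPM in Torin libraries, against 402, 560.1 and 472 CPM in DMSO libraries (log2 fold change -4.12, SE 0.14), and Egln1 had 9.44, 11.5 and 9.34 CPM, against 25.2, 36.1 and 26.1 CPM (log2 fold change -1.53, SE 0.18).

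Of 9 targets grouped under mitochondria, not all of which act inside them, 8 fell. Mgarp, a mitochondrial transport adaptor, was at 0.135, 0.186 and 0.0759 CPM with Torin, against 14.5, 16.2 and 14.5 CPM with DMSO (log2 fold change -6.77, SE 0.27). Pdk1, which shuts pyruvate out of the citric acid cycle, was at 51.2, 45.7 and 55.5 CPM with Torin, against 176, 189 and 192 CPM with DMSO (log2 fold change -1.87, SE 0.09). Higd1a, which acts on respiratory chain complexes, fell to 76.9, 73.9 and 77.2 CPM, against 173, 181 and 184 CPM with DMSO. In each of these genes the highest Torin library lay below the lowest DMSO library. The exception, picked for that, was the MYC antagonist Mxi1, which did not pass, with 11.4, 12.4 and 38.2 CPM in Torin libraries, against 31.8, 39.1 and 32.2 CPM in DMSO libraries, and it fell by 1.53 on the log2 scale without Torin replicate 3.

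Of 13 targets grouped under pH and signals to vessels, not all with such a known role, 10 fell and 2 rose. The carbonic anhydrases Car9 and Car12, which buffer acid at the cell surface, fell together. Car9 had 10.4, 7.23 and 9.60 CPM in Torin libraries, against 205, 254 and 214 CPM in DMSO libraries (log2 fold change -4.63, SE 0.17). Car12 had 52.9, 53.4 and 42.9 CPM, against 382, 377 and 376 CPM (log2 fold change -2.93, SE 0.10). The ankyrin repeat gene Ankrd37 fell as well (log2 fold change -3.66, SE 0.20). The rises were Edn1 and Stc2, which are named for being the exceptions, after their values were seen, as is Rab20 in the next group. Edn1, which encodes the vasoconstrictor endothelin, had 9.99, 8.53 and 11.9 CPM in Torin libraries, against 1.21, 0.894 and 0.911 CPM in DMSO libraries (log2 fold change 3.33, SE 0.22). Of the 19 remaining targets, 15 fell, and Rab20 rose by 0.48 on the log2 scale. The stress gene Ndrg1, also a reporter of mTORC2 and SGK1 activity at the protein level, had 38.2, 37.6 and 36.2 CPM in Torin libraries, against 339, 499 and 382 CPM in DMSO libraries (log2 fold change -3.44, SE 0.16). Selenbp1, a selenium-binding thiol oxidase, fell to 3.52, 3.54 and 4.21 CPM, against 52.1, 82.0 and 67.1 CPM with DMSO (log2 fold change -4.16, SE 0.20). Ero1a, the oxidase that forms disulfide bonds in the endoplasmic reticulum, fell to 159, 142 and 171 CPM, against 1040.2, 1443 and 1167 CPM with DMSO, and the collagen hydroxylase Plod1 fell by 2.24 on the log2 scale.

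Glycolysis genes fell in nearly the whole list. Of 22 genes, 19 fell and 0 rose, with a median log2 fold change of -1.32, and their summed level was 9245, 8866 and 9027 CPM in Torin libraries, against 18622, 22074 and 19717 CPM in DMSO libraries. The largest fall was in Slc16a3, which exports lactate, with 2.505, 2.79 and 2.85 CPM in Torin libraries, against 125, 168 and 155 CPM in DMSO libraries (log2 fold change -5.78, SE 0.15, adjusted p = 1.76e-05 by edgeR's quasi-likelihood test). The glucose transporters followed in the same direction and to different degrees. Slc2a3 had 1.49, 1.34 and 2.01 CPM in Torin libraries, against 21.4, 16.7 and 18.8 CPM in DMSO libraries, and Slc2a1 had 107, 103 and 129.7 CPM, against 211, 266 and 215 CPM. Among regulatory enzymes, Pfkfb3, which makes the activator of phosphofructokinase, fell most (log2 fold change -2.93, SE 0.16). The phosphofructokinase Pfkp had 62.7, 56.0 and 59.0 CPM in Torin libraries, against 186, 223 and 203 CPM in DMSO libraries, and its relative Pfkl (-1.77) and the pyruvate kinase Pkm (-0.95) fell as well. All 9 core enzymes fell. Phosphoglycerate kinase Pgk1 had 214, 224 and 209.8 CPM in Torin libraries, against 796, 966 and 843 CPM in DMSO libraries (log2 fold change -2.01, SE 0.09), followed by the aldolases Aldoc (-2.20) and Aldoa (-1.58) and by Pgam1 (-1.17).

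**Figure D3:**
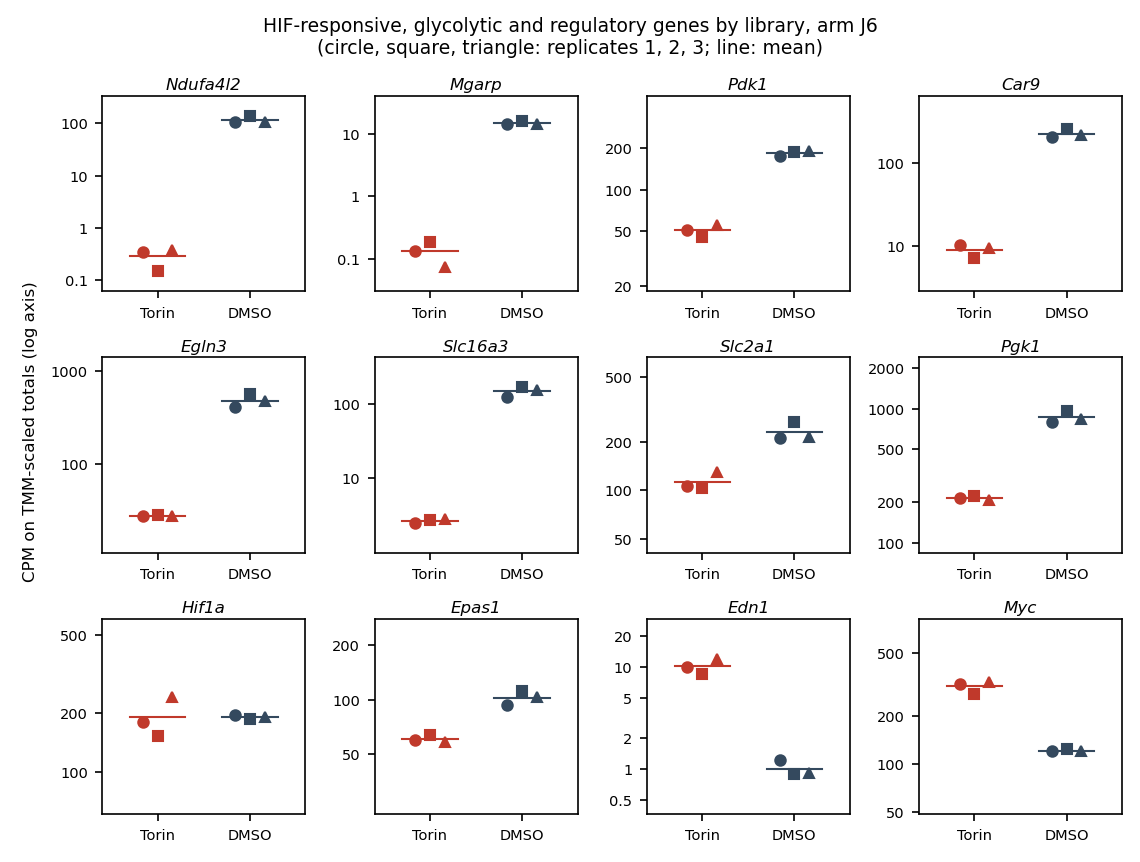
CPM on TMM-scaled totals (vertical axes, log scale) of 12 genes in the 3 Torin libraries (left, red) and the 3 DMSO libraries (right, dark), with replicates 1 to 3 as circle, square and triangle and a line at the mean. Torin libraries lie below all DMSO libraries for 9 genes, around them for Hif1a and above them for Edn1 and Myc.

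The promoter windows of these genes were read to see whether they hold the core of the HIF response element, since the genes moved together. Windows run from 250 bases before to 50 bases after a gene's start in RefSeq on the mouse build GRCm38.p6, which differs from the build GRCm39 named for the authors' counts, so their coordinates apply to the windows only. ACGTG or GCGTG, on either strand, was found in 56 of 70 windows (80.0%) of the 50 HIF-responsive and glycolysis genes that had a window, of 63 tested. The share was 43.8% over all 32851 windows and 59.6% over the 14710 windows of tested genes, and a match describes the letters only. Windows of genes with large falls are shown in the direction of transcription, with the matches in capitals (CACGT is ACGTG read from the other strand). Slc16a3 lies at chr11:120948817-120949116 on the plus strand, Car9 at chr4:43506776-43507075 on the plus strand and Mgarp at chr3:51396498-51396797 on the minus strand.
Slc16a3: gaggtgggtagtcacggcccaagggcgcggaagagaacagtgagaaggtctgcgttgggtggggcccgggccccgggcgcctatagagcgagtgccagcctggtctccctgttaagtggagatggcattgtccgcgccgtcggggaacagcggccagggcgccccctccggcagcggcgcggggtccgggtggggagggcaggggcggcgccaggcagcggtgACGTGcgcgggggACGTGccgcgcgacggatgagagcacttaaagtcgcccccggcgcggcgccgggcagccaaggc
Car9: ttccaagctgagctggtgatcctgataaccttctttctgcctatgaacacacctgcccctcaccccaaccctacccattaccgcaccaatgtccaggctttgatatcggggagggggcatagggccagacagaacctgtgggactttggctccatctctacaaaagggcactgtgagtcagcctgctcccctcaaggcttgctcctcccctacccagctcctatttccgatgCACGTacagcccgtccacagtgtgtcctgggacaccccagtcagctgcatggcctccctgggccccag
Mgarp: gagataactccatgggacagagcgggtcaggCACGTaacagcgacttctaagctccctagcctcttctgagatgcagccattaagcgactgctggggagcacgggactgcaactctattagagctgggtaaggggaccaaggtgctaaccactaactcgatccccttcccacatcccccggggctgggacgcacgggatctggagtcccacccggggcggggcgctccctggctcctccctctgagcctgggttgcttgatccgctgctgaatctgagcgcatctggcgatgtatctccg

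Outside glycolysis, carbon metabolism moved in both directions. Of 32 genes of the citric acid cycle and pyruvate oxidation, 9 rose and 4 fell, with a median of 0.13, and 4 rose without DMSO replicate 3. The cytosolic isocitrate dehydrogenase Idh1 had 197, 221 and 179.6 CPM in Torin libraries, against 595, 588 and 578 CPM in DMSO libraries (log2 fold change -1.56, SE 0.09), and the mitochondrial malate dehydrogenase Mdh2 had 671, 704 and 600.2 CPM, against 408, 445 and 406 CPM (log2 fold change 0.65, SE 0.09). Of 71 nuclear genes of the respiratory chain, 13 rose and 4 fell, beside 15.5% rising and 18.1% falling over all genes tested. Leaving out Torin replicate 1 or a DMSO library left 5 to 8 rises, while leaving out Torin replicate 3 gave 12 falls. Ndufa4, the ubiquitous paralog of Ndufa4l2, rose (log2 fold change 0.75, SE 0.11). In the serine pathway the first enzyme and the next went opposite ways. Phgdh had 158, 157 and 153 CPM in Torin libraries, against 42.9, 44.4 and 48.1 CPM in DMSO libraries (log2 fold change 1.79, SE 0.07), while Psat1 fell to 17.0, 18.0 and 15.1 CPM, against 26.9, 30.4 and 30.9 CPM with DMSO (log2 fold change -0.82, SE 0.11). Of 17 folate cycle genes 7 rose and 5 fell. The cytosolic Mthfd1 (1.15) and the thymidylate synthase Tyms (1.62) rose, while the mitochondrial Mthfd1l (-1.22) and the cytosolic Aldh1l1 (-2.91) fell.

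Genes that build ribosomes were higher with Torin. Of 69 ribosome biogenesis genes, 58 rose and 0 fell, with a median of 0.81, and without Torin replicate 3 64 rose. Their summed level was 6686, 6835 and 7135 CPM in Torin libraries, against 4086, 4003 and 3941 CPM in DMSO libraries, with no overlap. All 8 snoRNP protein genes rose, and 22 of 25 of the small subunit processome. The snoRNP core protein Nop56 had 240.0, 225 and 229 CPM in Torin libraries, against 93.9, 88.9 and 86.4 CPM in DMSO libraries (log2 fold change 1.37, SE 0.07). The RNA helicase Ddx21 had 98.2, 99.1 and 97.6 CPM, against 39.7, 32.2 and 36.2 CPM (log2 fold change 1.45, SE 0.09), and Utp20 of the processome had 83.8, 92.0 and 64.0 CPM, against 31.3, 24.5 and 26.2 CPM (log2 fold change 1.55, SE 0.16). For large subunit assembly the genes with the lowest p were Ftsj3 (1.12), Nop2 (1.14), Ebna1bp2 (0.78) and Rrp12 (1.72). RNA polymerase I and III genes counted 16 rises and 2 falls among 34. The second largest RNA polymerase I subunit, Polr1b, had 53.8, 50.9 and 48.1 CPM with Torin, against 20.7, 18.7 and 22.0 CPM with DMSO, while the RNA polymerase III subunit Polr3gl (-1.13) fell.

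Myc, whose product activates many ribosome biogenesis genes, had 319, 277 and 331 CPM in Torin libraries, against 120.3, 123 and 120.0 CPM in DMSO libraries (log2 fold change 1.35, SE 0.08), with no overlap. The E-box CACGTG, which MYC and other factors can bind, was found on either strand in 11 of 60 windows (18.3%) of the 55 ribosome biogenesis genes that had a window, against 7.15% of all windows and 9.41% of the windows of tested genes. CACGTG holds ACGTG, so each such window also counts for the HIF core. The window of Nop2, an RNA methyltransferase of the large subunit, lies at chr6:125131633-125131932 on the plus strand, with the E-box in capitals.
Nop2: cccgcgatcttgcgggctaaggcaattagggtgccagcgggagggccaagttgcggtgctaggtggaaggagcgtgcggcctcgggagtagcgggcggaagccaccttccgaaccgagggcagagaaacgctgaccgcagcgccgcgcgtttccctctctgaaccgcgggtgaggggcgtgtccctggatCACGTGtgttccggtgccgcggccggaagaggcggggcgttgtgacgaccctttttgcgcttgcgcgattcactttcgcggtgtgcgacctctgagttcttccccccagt

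Of 83 ribosomal protein genes, 18 rose and 0 fell, with a median of 0.38, beside 15.5% of all genes rising. Their summed level was 26312, 22669 and 36766 CPM in Torin libraries, against 22152, 24003 and 20851 CPM in DMSO libraries, so that Torin replicate 3 was highest and Torin replicate 2 lay within the DMSO range. The count of rises ranged between 3 without DMSO replicate 3 and 41 without Torin replicate 2. Without Torin replicate 3 the median was 0.15, with 27 rises and 1 fall. Many of these genes have near-identical pseudogenes, so their counts are uncertain. Of 50 translation factors 24 rose and 3 fell, and 12 to 14 rose when a DMSO library was left out. The scaffold Eif4g1 had 387, 383 and 385 CPM in Torin libraries, against 252, 246 and 265 CPM in DMSO libraries (log2 fold change 0.60, SE 0.06), and Eif4e3, an atypical cap-binding protein, fell (log2 fold change -1.66, SE 0.10). The translation repressor Eif4ebp1, a direct mTORC1 substrate, fell to 88.5, 101 and 83.1 CPM with Torin, against 145, 171 and 138 CPM with DMSO (log2 fold change -0.73, SE 0.11). Among 22 cytosolic tRNA synthetases 11 rose and 0 fell, with Iars (0.93) rising most, and 6 or 7 rose when a DMSO library was left out. Nucleotide synthesis counted 13 rises and 1 fall among 20 genes, with 2 falls without Torin replicate 3. Its leading members were the nucleoside diphosphate kinase Nme1 (1.48), the pyrimidine enzyme Cad (1.12), and the purine enzymes Impdh2 (0.99) and Atic (0.92). Of 32 constitutive proteasome genes 11 rose and 0 fell, while 17 rose without Torin replicate 3 and 7 without DMSO replicate 3. Of 24 cytosolic and mitochondrial chaperone genes 14 rose and 3 fell, and the rises included Hsph1 (1.14), Cct3 (1.004) and Hspd1 (0.95).

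Genes of mTOR signalling were called in shares close to the 33.6% of all genes. Of 11 genes of the complexes 1 rose and 2 fell, of 29 regulators 4 rose and 4 fell, and of 13 substrates 1 rose and 3 fell. Without Torin replicate 3, 3 genes of the complexes, 7 regulators and 4 substrates rose and 7 substrates fell, and without DMSO replicate 1, 2 regulators rose. None of Mtor, Rptor, Rictor or Mlst8 passed, with log2 fold changes of 0.27, 0.30, -0.02 and 0.39. In the 5 libraries without Torin replicate 3, Mtor rose (0.45) and Mlst8 rose (0.49). Deptor, an inhibitory subunit, fell to 650.0, 719 and 679 CPM in Torin libraries, against 979, 1044 and 1031 CPM in DMSO libraries (log2 fold change -0.58, SE 0.07). Rragd, a GTPase that recruits mTORC1 to lysosomes and a known target of TFEB and its relatives, had 12.7, 13.9 and 14.1 CPM in Torin libraries, against 1.21, 1.52 and 1.57 CPM in DMSO libraries (log2 fold change 3.24, SE 0.17). The stress-induced mTORC1 inhibitors Ddit4 (-1.02) and Sesn1 (-1.26) fell. The kinase gene Sgk1 rose (log2 fold change 1.24, SE 0.13). Among growth factor receptors and adaptors the PI3K regulators Pik3ip1 (-1.39) and Pik3r1 (-1.03) and the receptor Erbb3 (-0.49) fell, while Egfr (0.47) rose. The FOXO-responsive glucose sensor Txnip fell to 49.0, 49.2 and 64.7 CPM, against 226, 271 and 229 CPM with DMSO. Other FOXO-responsive genes moved both ways, as G0s2 (-1.51) and Sesn3 (-0.64) fell and Sod2 (0.98) rose. The adaptor Irs1 (0.73) and the FOXO-responsive Fbxo32 (0.35), picked after their values were seen, rose as well.

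Lysosome genes moved both ways, and 4 of 33 autophagy genes passed, beside 33.6% of all genes. Of 58 lysosome genes 18 rose and 11 fell, with a median of 0.04, and 11 rose without DMSO replicate 1 or 3. The cathepsin Ctsd rose to 2619.9, 2499 and 2664 CPM with Torin, against 1481, 1587 and 1434 CPM with DMSO, the cystine exporter Ctns (1.53) rose, and the acid lipase Lipa fell to 30.6, 29.4 and 30.0 CPM, against 99.3, 110.0 and 106 CPM. Of 16 proton pump genes 7 rose and 1 fell (2 without Torin replicate 3). Among 33 autophagy genes 0 rose and 4 fell, and 2 rose without Torin replicate 3. Of the falls, Atg10, which helps conjugate ATG12, fell by 0.59 on the log2 scale, while the call of Gabarapl1 was lost without Torin replicate 1, that of Atg4d without DMSO replicate 3 and that of Tax1bp1 without either. The regulator Mitf fell (log2 fold change -1.23, SE 0.24). Tfeb and Tfe3 did not pass, at 0.22 and 0.24, and Tfeb rested on Torin replicate 3, with 9.85, 11.4 and 26.7 CPM in Torin libraries, against 13.8, 14.4 and 12.9 CPM in DMSO libraries. Without that library Tfeb fell (-0.36) and Tfe3 rose (0.34).

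Lipid genes moved both ways. Of 27 cholesterol genes 12 rose and 5 fell, and 7 rose without Torin replicate 1, DMSO replicate 1 or DMSO replicate 3. Of 24 fatty acid synthesis genes 3 rose and 8 fell, and without Torin replicate 3 7 rose and 12 fell. The acetyl-CoA synthetase Acss2 had 7.48, 7.56 and 6.91 CPM in Torin libraries, against 31.6, 32.2 and 30.2 CPM in DMSO libraries, and the triglyceride enzyme Dgat2 (-1.92) and the desaturases Fads1 (-1.38) and Fads2 (-0.76) fell. Srebf1 and Srebf2, which encode the factors that drive these pathways, did not pass, at -0.12 and 0.08, and Srebf2 rose without Torin replicate 3 (0.21).

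Antioxidant genes moved both ways, with 11 rises and 12 falls among 38. The secreted superoxide dismutase Sod3 had 114, 95.2 and 99.3 CPM in Torin libraries, against 8.21, 5.99 and 5.79 CPM in DMSO libraries (log2 fold change 3.95, SE 0.17). The glutathione transferase Gsta4 (2.98) and the aldehyde dehydrogenase Aldh3a1 (2.75) rose, while the quinone reductase Nqo1, a classical NRF2 target, fell to 57.1, 55.3 and 63.2 CPM, against 197, 235 and 225 CPM with DMSO (log2 fold change -1.90, SE 0.10). Nfe2l2, which encodes NRF2, did not pass (-0.10). Among amino acid transporters 5 of 24 rose and 5 fell, beside 15.5% rising and 18.1% falling over all genes tested. Without Torin replicate 3, 9 rose. The falls, named after their values were seen, were Slc7a8 (-1.53), Slc1a4 (-0.97), Slc36a4 (-0.83), Slc3a2 (-0.67) and Slc38a3 (-0.42). Slc6a14, a broad importer of neutral and cationic amino acids, had 72.9, 65.7 and 78.9 CPM in Torin libraries, against 10.6, 10.4 and 11.3 CPM in DMSO libraries (log2 fold change 2.75, SE 0.10), and the cystine importer Slc7a11 (1.94) rose. Atf4 did not pass (-0.03), and of 16 genes it regulates 4 fell and 1 rose (2 rose without Torin replicate 3). Transferrin, the most abundant transcript by counts, had 12089, 13048 and 9162 CPM in Torin libraries, against 48323, 53729.6 and 49275 CPM in DMSO libraries (log2 fold change -2.14, SE 0.19). Its share of counts was 1.26, 1.35 and 0.876% with Torin, against 4.84, 5.17 and 4.93% with DMSO. Ltf, the related iron-binding lactoferrin, moved the other way, with 184, 115 and 173 CPM in Torin libraries, against 25.8, 26.3 and 27.3 CPM in DMSO libraries (log2 fold change 2.57, SE 0.18).

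Cell cycle genes moved in different directions. Mitosis genes were lower with Torin, with 42 falls and 0 rises among 46 genes and a median of -1.04. The proliferation marker Mki67 had 15.2, 18.0 and 15.7 CPM in Torin libraries, against 42.2, 36.4 and 42.2 CPM in DMSO libraries (log2 fold change -1.31, SE 0.12). The mitotic cyclin Ccnb2 had 13.9, 11.2 and 14.3 CPM, against 42.5, 40.9 and 39.1 CPM (log2 fold change -1.64, SE 0.12), and the centromeric histone Cenpa had 13.8, 11.9 and 12.6 CPM, against 40.3, 38.3 and 36.1 CPM (log2 fold change -1.58, SE 0.11). In each of these genes all Torin libraries lay below all DMSO libraries. Of 41 DNA replication genes 4 rose and 6 fell, beside 15.5% rising and 18.1% falling over all genes tested. Their median was -0.10, beside 0.04 over all genes. The helicase genes Mcm2 (0.86), Mcm3 (0.64) and Mcm7 (0.68) rose, while the thymidine kinase Tk1 (-1.14) and the licensing inhibitor Gmnn (-1.003) fell. Of 24 G1 genes 9 rose and 3 fell, and 8 fell with Torin replicate 3 left out. The G1 cyclin Ccnd2 had 1256, 1293 and 1265 CPM in Torin libraries, against 330.4, 252 and 310.2 CPM in DMSO libraries (log2 fold change 2.09, SE 0.11), and Ccnd1 had 2417, 2645 and 2044 CPM, against 1326, 1309.7 and 1306 CPM (log2 fold change 0.85, SE 0.11). Both cyclins were higher in every Torin library. The cell cycle inhibitors Cdkn1b (-0.90) and Cdkn2d (-2.01) fell and Cdkn2a (1.19) rose, while Cdkn1a did not pass, with 232, 230.1 and 264 CPM in Torin libraries, against 193, 227 and 181 CPM in DMSO libraries, though its groups did not overlap and it rose without DMSO replicate 2.

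Of 22 p53 targets 9 rose and 1 fell, and 14 rose without Torin replicate 3. The death effector Bax had 314, 321 and 289 CPM in Torin libraries, against 151, 144 and 142 CPM in DMSO libraries (log2 fold change 1.08, SE 0.07). The nuclease Aen (1.18), the receptor Eda2r (1.36) and the p53 inhibitor Mdm2 (0.80) rose, as did Trp53, at 115, 106 and 134 CPM, against 64.6, 69.6 and 67.3 CPM with DMSO (log2 fold change 0.82, SE 0.10).

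Interferon-response genes were lower with Torin in most of the list. Of 54 genes 42 fell and 3 rose, with a median of -1.79. All 25 antiviral effectors fell, with a median of -2.85, and their summed level was 298, 263 and 309 CPM in Torin libraries, against 979, 1038 and 800.0 CPM in DMSO libraries. Among the factors that drive them, Irf7 had 4.10, 3.76 and 5.01 CPM in Torin libraries, against 93.0, 77.0 and 54.7 CPM in DMSO libraries (log2 fold change -4.12, SE 0.24). The interferon signalling factors Stat2 (-1.54) and Irf9 (-1.48) fell as well. Torin libraries lay below all DMSO libraries for these 3 factors. Of the effectors, Rtp4 had 15.5, 12.3 and 15.5 CPM with Torin, against 109, 117 and 85.6 CPM with DMSO (log2 fold change -2.85, SE 0.16). The sensor of viral RNA Oas1a had 6.06, 4.73 and 6.07 CPM, against 28.4, 31.8 and 24.7 CPM (log2 fold change -2.33, SE 0.16), and its relatives Oasl1 (-2.50) and Oasl2 (-2.76) fell. Of 14 GTPase genes 11 fell, including Gbp7, which fell to 9.04, 8.49 and 8.43 CPM, against 46.7, 48.0 and 43.4 CPM with DMSO, as well as Tgtp1 (-3.49), Iigp1 (-2.89) and Irgm2 (-1.61).

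The letters GAAA, then any 2 bases, then GAAA again, the core of the element through which STAT and IRF factors act, were found on either strand in 7 of 16 windows (43.8%) of the 15 antiviral effectors that had a window, against 3.44% of all windows and 3.02% of the windows of tested genes. A pair of windows with matches is shown, with overlapping matches joined in capitals. Oas1a lies at chr5:120907476-120907775 on the minus strand, and Isg15, a ubiquitin-like effector picked for its joined matches after values were seen (log2 fold change -2.93, SE 0.32), at chr4:156200769-156201068 on the minus strand.
Oas1a: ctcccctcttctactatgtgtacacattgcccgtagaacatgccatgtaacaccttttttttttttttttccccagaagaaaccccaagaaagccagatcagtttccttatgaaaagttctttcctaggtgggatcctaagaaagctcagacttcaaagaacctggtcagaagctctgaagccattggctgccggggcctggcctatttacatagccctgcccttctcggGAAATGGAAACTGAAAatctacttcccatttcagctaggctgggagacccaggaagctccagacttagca
Isg15: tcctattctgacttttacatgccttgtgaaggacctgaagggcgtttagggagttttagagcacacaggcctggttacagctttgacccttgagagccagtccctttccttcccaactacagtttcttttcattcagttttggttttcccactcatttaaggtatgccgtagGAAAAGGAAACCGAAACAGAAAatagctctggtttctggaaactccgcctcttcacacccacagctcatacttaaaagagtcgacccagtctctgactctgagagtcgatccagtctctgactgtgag

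Antigen presentation genes fell with them. Of 19 genes of the immunoproteasome and MHC class I, 16 fell and 1 rose, with a median of -1.16. The catalytic subunit Psmb8 had 41.2, 40.1 and 47.9 CPM in Torin libraries, against 168, 189 and 153 CPM in DMSO libraries (log2 fold change -1.98, SE 0.11), and Psmb9 (-2.42) fell further. The class I heavy chain H2-D1 had 887, 824 and 854 CPM, against 2311, 2348 and 2026 CPM (log2 fold change -1.38, SE 0.09). H2-Q6 (-3.63) and H2-Q7 (-3.53) are near-identical copies, so the division of reads between them is uncertain. Nlrc5, the class I transactivator, fell (log2 fold change -1.50, SE 0.28). Ciita, the transactivator of class II genes, did not pass (0.779, 1.12 and 0.835 CPM in Torin libraries, against 1.56, 0.671 and 0.838 CPM in DMSO libraries). Of 7 class II genes tested 4 fell, and 3 fell without Torin replicate 3. Leaving out Torin replicate 1 or 2 or DMSO replicate 2 or 3 left 2 falls. The peptide exchange subunit H2-DMb1 (-1.47) fell beside H2-Ab1. The class II alpha chain gene H2-Aa, named for its low level, had 1, 0 and 0 counts in Torin libraries. In DMSO libraries it had 2, 0 and 0 counts, and it was not tested. Cd74 fell at a low level, with 1.08, 0.968 and 0.797 CPM in Torin libraries, against 1.68, 1.61 and 2.15 CPM in DMSO libraries. H2-Eb1, another beta chain, rose at a low level, with 1.59, 0.931 and 0.759 CPM in Torin libraries, against 0.391, 0.358 and 0.364 CPM in DMSO libraries, and its call was lost without Torin replicate 1 or without any DMSO library.

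Markers of immune cells were low or at 0 in the same libraries. Of 18 T and NK cell markers 13 had any count and 2 passed the filter on low counts. Of these, Lck fell (-1.60), while Trbc2 did not pass the test (-0.42) and fell without Torin replicate 3 (-0.48). The list summed to 20.04, 17.9 and 21.7 CPM in Torin libraries, against 29.1, 28.1 and 23.4 CPM in DMSO libraries. Trbc2 made up most of the sum in every library, at 18.0, 15.4 and 19.1 CPM with Torin, against 25.5, 24.6 and 19.9 CPM with DMSO. Cd3e, Cd4, Nkg7, Klrd1 and Ncr1 had 0 counts in all 6 libraries. Ptprc, which encodes the leukocyte antigen CD45, had 7, 11 and 16 counts in Torin libraries, against 3, 3 and 4 counts in DMSO libraries, a ratio of 3.10 with a 95% counting interval of 1.496 to 7.03. Of 15 macrophage and B cell markers 11 had any count, 3 were tested and Cd68 fell, while Adgre1, C1qa, C1qb and Tyrobp had 0 counts in all 6 libraries. Their summed level was 2.20, 2.91 and 2.51 CPM in Torin libraries, against 7.78, 12.2 and 8.82 CPM in DMSO libraries. Among mast cell and basophil markers Cpa3, Fcer1a, Ms4a2, Tpsb2 and Tpsab1 had 0 counts in all 6 libraries. Kit was the only marker of that list tested, and it also marks luminal progenitors. The part of Ptprc and of the macrophage and B cell markers in the changes of interferon, MHC and protease genes was not tested. Of 18 granzyme and mast cell protease genes 8 had any count, 4 were tested and 3 rose, of which Gzme and Mcpt8 are described above. Gzmc had 102 counts over the Torin libraries, against 4 over the DMSO libraries, a ratio of 23.2 with a 95% counting interval of 8.80 to 86.9. Gzmm, named as the remaining gene tested, did not pass, and the granzyme genes Gzmc and Gzme have close copies, so their counts are uncertain.

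Chemokines and cytokines split into 13 rises and 9 falls among 32 genes, and 12 fell without Torin replicate 3. The interleukin 1 receptor antagonist Il1rn had 284, 313 and 283 CPM in Torin libraries, against 62.9, 61.6 and 52.8 CPM in DMSO libraries (log2 fold change 2.31, SE 0.09). Lif, a ligand that activates STAT3, had 53.6, 50.7 and 62.3 CPM, against 12.9, 13.8 and 12.0 CPM (log2 fold change 2.10, SE 0.12), and Cxcl16 (1.70) and the macrophage growth factor Il34 (1.62) rose. Csf3, which drives neutrophil production, had 251, 255 and 211 CPM, against 59.1, 48.3 and 45.6 CPM (log2 fold change 2.23, SE 0.13). All of these were higher in every Torin library. Picked after their values were seen, the neutrophil attractants Cxcl5 (3.18) and Cxcl1 (1.84), the interleukin Il6 (5.02), the acute-phase gene Saa3 (4.004) and Ccl20 (3.23) rose as well, while Cxcl14 (-2.79), Ccl8 (-3.93) and the alarmin Il33 (-1.95) fell. Among prostaglandin genes 5 of 16 fell, including the synthase Ptges, at 33.0, 25.8 and 38.7 CPM with Torin, against 145, 172 and 137 CPM with DMSO. The antibody transporter Pigr fell to 44.6, 43.1 and 50.6 CPM, against 151, 197 and 175 CPM with DMSO (log2 fold change -1.92, SE 0.12).

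**Figure D4:**
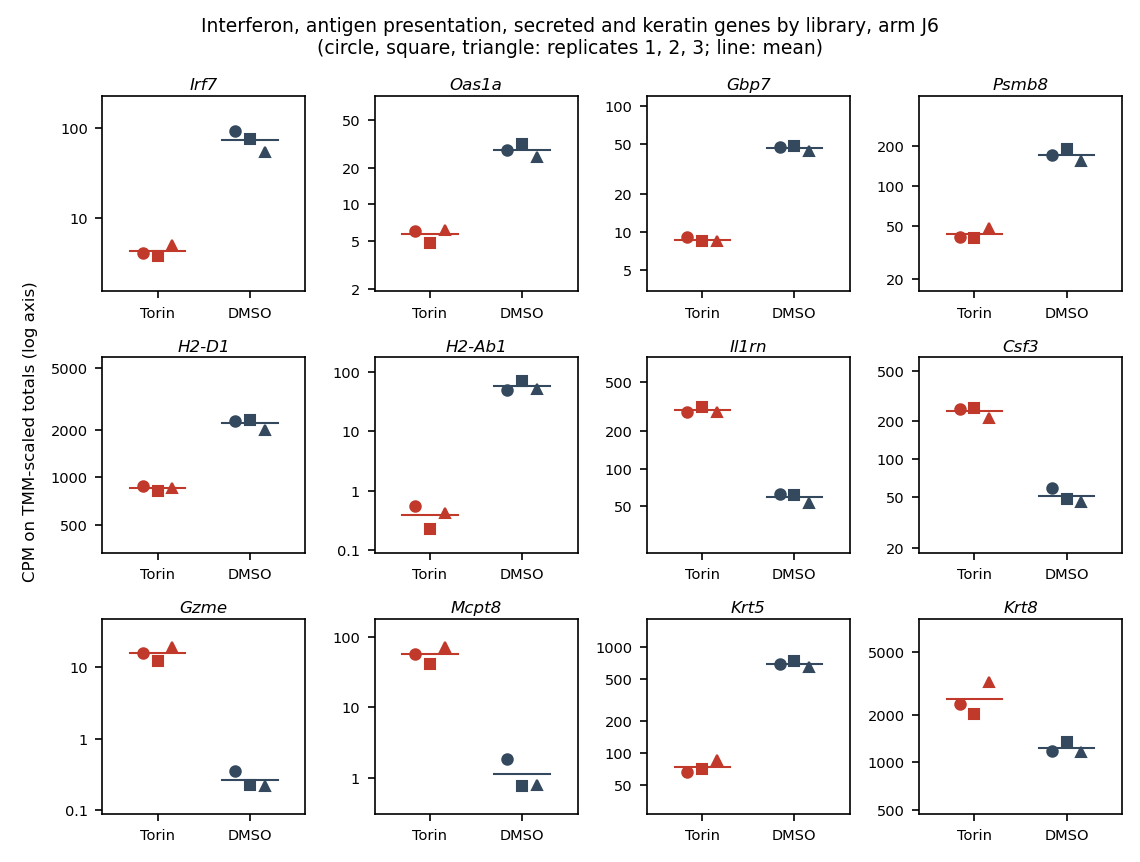
CPM on TMM-scaled totals (vertical axes, log scale) of 12 genes in the 3 Torin libraries (left, red) and the 3 DMSO libraries (right, dark), with replicates 1 to 3 as circle, square and triangle and a line at the mean. Torin libraries lie below all DMSO libraries for Irf7, Oas1a, Gbp7, Psmb8, H2-D1, H2-Ab1 and Krt5 and above them for Il1rn, Csf3, Gzme, Mcpt8 and Krt8.

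Epithelial markers were abundant in both groups, in keeping with the labels, and their balance differed. Pan-luminal markers summed to 10190.3, 10235 and 11624 CPM in Torin libraries, against 6941, 8195 and 7260.5 CPM in DMSO libraries, and 7 of 14 rose while 3 fell. The luminal keratin Krt8 had 2343, 2011 and 3240.4 CPM in Torin libraries, against 1172, 1348 and 1171 CPM in DMSO libraries (log2 fold change 1.04, SE 0.18), and Krt18 had 3772, 4087 and 3824 CPM, against 2169, 2688 and 2239 CPM (log2 fold change 0.72, SE 0.11). The junction genes Cdh1 (0.69), Cldn4 (1.31) and Cldn7 (0.46) rose with them. Named after their values were seen, the keratin Krt19 (-1.05), Elf3 (-0.58) and Prlr (-0.31) were the falls of this list. Epcam did not pass (-0.65) and fell without Torin replicate 3 (-1.06). Krt8 and Krt18 were the largest parts of the list sum in both groups, so the sum does not speak for the list as a whole. The basal keratin Krt5 fell to 66.9, 70.9 and 87.4 CPM in Torin libraries, against 699, 736 and 642 CPM in DMSO libraries (log2 fold change -3.20, SE 0.13). Its usual partner Krt14 did not pass, with 723, 661 and 874 CPM, against 970.1, 1049.6 and 842 CPM, and it fell by 0.46 on the log2 scale without Torin replicate 3. Trp63, the basal lineage factor, did not pass either (log2 fold change -0.20, SE 0.07). Of 21 basal markers 6 rose and 6 fell, and 10 fell without Torin replicate 3. The fallen ones included Krt15 (-1.64), Vim (-1.25) and the myosin kinase Mylk (-1.14), while the contractile gene Cnn1 (0.97) rose, so the list moved both ways.

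Luminal progenitor markers were mostly lower, with 8 falls and 1 rise among 13. The tetraspanin Tspan8 had 33.0, 32.5 and 32.5 CPM in Torin libraries, against 165, 167 and 171 CPM in DMSO libraries (log2 fold change -2.36, SE 0.06), the Notch target Hey1 had 58.6, 59.5 and 54.4 CPM, against 227, 265 and 251 CPM (log2 fold change -2.11, SE 0.09), and Wfdc18 had 635, 758 and 605 CPM, against 3436, 4082 and 4046 CPM. The rise was Ltf. Of 14 markers of hormone-sensing cells 3 rose and 7 fell. Esr1, the estrogen receptor, fell to 37.7, 38.3 and 41.6 CPM, against 91.5, 93.1 and 94.3 CPM with DMSO (log2 fold change -1.25, SE 0.07), and its target Areg, an EGF receptor ligand, rose to 37.9, 38.4 and 51.0 CPM, against 10.0, 11.2 and 9.69 CPM with DMSO (log2 fold change 2.04, SE 0.15). The heparin-binding factor Ptn (-2.80) and Cited1 (-1.36) fell. Milk and secretion genes counted 8 falls and 2 rises among 17, with the largest falls in the mucins Muc15 (-3.01) and Muc1 (-2.87).

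Of 22 keratins 7 rose and 8 fell (5 fell without DMSO replicate 1 or 2), and of 20 cornification genes 4 rose and 9 fell. The stress keratin Krt16 (-2.17), the envelope protein Sprr1a (-3.42), Dmkn (-2.90) and the protease Klk7 (-3.40) fell. The rises among cornification genes included Trex2 (4.90) and, at a low level and picked after its values were seen, Lor (3.26). Lor had 1.08, 0.819 and 4.37 CPM in Torin libraries, and its log2 fold change without Torin replicate 3 was 2.14. At the basement membrane, the hemidesmosome collagen Col17a1 fell to 111, 102 and 85.4 CPM in Torin libraries, against 369.7, 369.6 and 334 CPM in DMSO libraries (log2 fold change -1.85, SE 0.11). The laminin chains Lama3 (-1.23) and Lamb3 (-0.90) fell with it, while the integrin Itgb4 (0.76) rose. The desmosomal cadherin Dsc3 (-2.10) fell. Of 28 contractile and YAP target genes 13 rose and 4 fell, and 7 or 8 rose without Torin replicate 1 or any DMSO library. Ankrd1, a sensitive YAP target, had 63.6, 51.5 and 65.1 CPM in Torin libraries, against 5.51, 3.31 and 4.37 CPM in DMSO libraries (log2 fold change 3.77, SE 0.21), and the tropomyosin Tpm1 had 1222, 1218 and 1266 CPM, against 500.4, 508 and 485 CPM (log2 fold change 1.31, SE 0.07).

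Matrix genes were lower in most cases. Of 69 genes 40 fell and 7 rose, with a median of -0.84. The fibrillar collagen Col1a1 had 101, 90.2 and 84.1 CPM in Torin libraries, against 378, 341 and 509.5 CPM in DMSO libraries (log2 fold change -2.16, SE 0.17), and Tgfbi had 1.42, 1.602 and 1.101 CPM, against 40.0, 38.6 and 42.0 CPM. Fibroblast markers moved with the matrix genes, and the lists share collagens. Of 17 markers 14 fell and 1 rose, and their summed level was 1478, 1433 and 1230.0 CPM in Torin libraries, against 1994, 1735 and 2287 CPM in DMSO libraries. The receptor Pdgfra, which defines fibroblasts, had 3.99, 2.91 and 3.07 CPM in Torin libraries, against 17.8, 15.8 and 16.4 CPM in DMSO libraries. The exception, picked for that, was a rise of the fibronectin gene Fn1 (0.72), which many cell types express. The part of fibroblast markers in the matrix result was not tested. Of 8 neural and Schwann cell markers 6 fell. Pericyte and smooth muscle markers counted 4 falls and 0 rises among 7 tested, with 2 falls without DMSO replicate 3, and summed to 95.5, 83.3 and 85.0 CPM in Torin libraries, against 117, 126 and 134 CPM in DMSO libraries. The proteoglycan Cspg4 (-2.64) and the receptor Pdgfrb (-0.82), which is also a fibroblast marker of the list above, fell. Of 5 endothelial markers tested, Plvap (-1.51) and Eng (-0.94) fell and Flt1 (1.17) rose. The 11 listed summed to 95.4, 89.4 and 110.3 CPM in Torin libraries, against 72.5, 65.3 and 63.7 CPM in DMSO libraries. Flt1 made up most of both sums, at 79.4, 74.8 and 91.3 CPM with Torin, against 40.5, 34.9 and 34.1 CPM with DMSO. The sum was higher with Torin through that gene. The part of these cell types in the matrix result was not tested either. Matrix proteases and inhibitors were mixed, with 10 rises and 8 falls among 26. The collagenase Mmp13 had 1119, 911 and 1159 CPM in Torin libraries, against 258, 159.7 and 173 CPM in DMSO libraries (log2 fold change 2.43, SE 0.21), and the aggrecanase Adamts5 had 289.9, 272 and 326 CPM, against 46.7, 35.0 and 33.2 CPM (log2 fold change 2.95, SE 0.15). The inhibitor Timp3 rose (log2 fold change 1.63, SE 0.12).

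Signalling ligands moved both ways, with 12 rises and 13 falls among 41. Igf1 fell to 12.3, 13.9 and 12.6 CPM in Torin libraries, against 152, 127 and 136 CPM in DMSO libraries (log2 fold change -3.42, SE 0.10). Bmp4 had 11.6, 9.01 and 9.79 CPM, against 0.586, 0.134 and 0.182 CPM (log2 fold change 5.04, SE 0.47), with Bmp2 (1.44) and Bmp3 (1.68) also higher and the BMP antagonist Grem1 (-2.64) lower. In the Wnt pathway 8 of 26 genes rose and 3 fell, and 5 fell without Torin replicate 3. The feedback gene Axin2 (2.67), the ligand Wnt10a (1.55) and the receptor Lgr6 (1.62) rose, while the stem cell receptor Lgr5 fell to 1.90, 2.57 and 2.51 CPM, against 12.9, 8.18 and 14.5 CPM with DMSO. The Notch ligand Dll4 fell to 0.271, 0.708 and 0.873 CPM, against 7.82, 8.99 and 7.43 CPM with DMSO (log2 fold change -3.71, SE 0.39). Clock genes counted 9 falls and 0 rises among 19, including the period genes Per2 (-1.61) and Per3 (-1.87) and the repressor Bhlhe40 (-1.78). With Torin replicate 3 left out, 12 clock genes fell and 1 rose.

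The other Torin arm, J12, has its own 3 Torin and 3 DMSO libraries of the same strain, age and dose, so the arms share no control. Its titles give 12 days of treatment and the series design 6 days, and the labels tag each arm as a batch by its days. Batch, length and start of treatment therefore cannot be told apart between the arms. In a fit of all 12 libraries, the Torin effect of 1917 of 18112 genes differed between the arms (10.6%), again by edgeR's quasi-likelihood test at an adjusted p under 0.05. It was higher in J6 for 1006 genes (5.55%) and lower in J6 for 911 (5.03%). Of the 7088 genes called in J6 in that fit 43.6% were called in the same direction in J12, and of the 4592 called in J12 67.2% were called in the same direction in J6. Opposite calls were made for 173 genes. Without DMSO replicate 3 of J6 the effect was higher in J6 for 623 genes and lower for 596, and without Torin replicates 1 and 2 of J12 in turn it was higher for 644 and 669.

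Among genes with a called difference, several HIF targets fell in both arms and further in J6. Ndufa4l2 had a log2 fold change of -8.63 in J6, against -2.87 in J12 (difference -5.76, SE 0.33). In J12 it had 20.2, 14.1 and 22.3 CPM in Torin libraries, against 142, 125 and 147 CPM in DMSO libraries, so the Torin libraries of J12 lay above those of J6. Slc16a3, the lactate exporter, had -5.77 in J6, against -2.16 in J12, where it had 46.3, 41.4 and 39.1 CPM in Torin libraries, against 189, 174 and 202 CPM in DMSO libraries. Mgarp and Adora2a differed in the same direction, by -4.41 and -4.51. Of 41 HIF-responsive genes outside glycolysis the effect was lower in J6 for 17 and higher for 3. The list median in this fit was -1.77 in J6, against -1.09 in J12.

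Other genes went opposite ways. Msln, a cell surface glycoprotein, had a log2 fold change of 4.46 in J6, against -2.22 in J12, and Ltf had 2.58, against -1.70. Apod, a lipid carrier, fell in J6 (-1.98) and rose in J12 (1.61), where it had 260.3, 275 and 305 CPM with Torin, against 96.2, 98.2 and 81.1 CPM with DMSO. Sod3 rose in J6 (3.96) and did not pass in J12 (-0.11). Collagens differed as a group, with the effect lower in J6 for 26 of 39 genes, higher for 2, and medians of -0.98 in J6, against 0.28 in J12. Fibroblast markers differed with them, lower in J6 for 11 of 17, and their part in the collagen result was not tested. p53 targets had a higher effect in J6 for 16 of 22 genes and cholesterol genes for 12 of 27. Mitosis genes differed little by count, higher in J6 for 3 of 46 and lower for 0, with medians of -1.02 in J6, against -1.20 in J12.

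**Figure D5:**
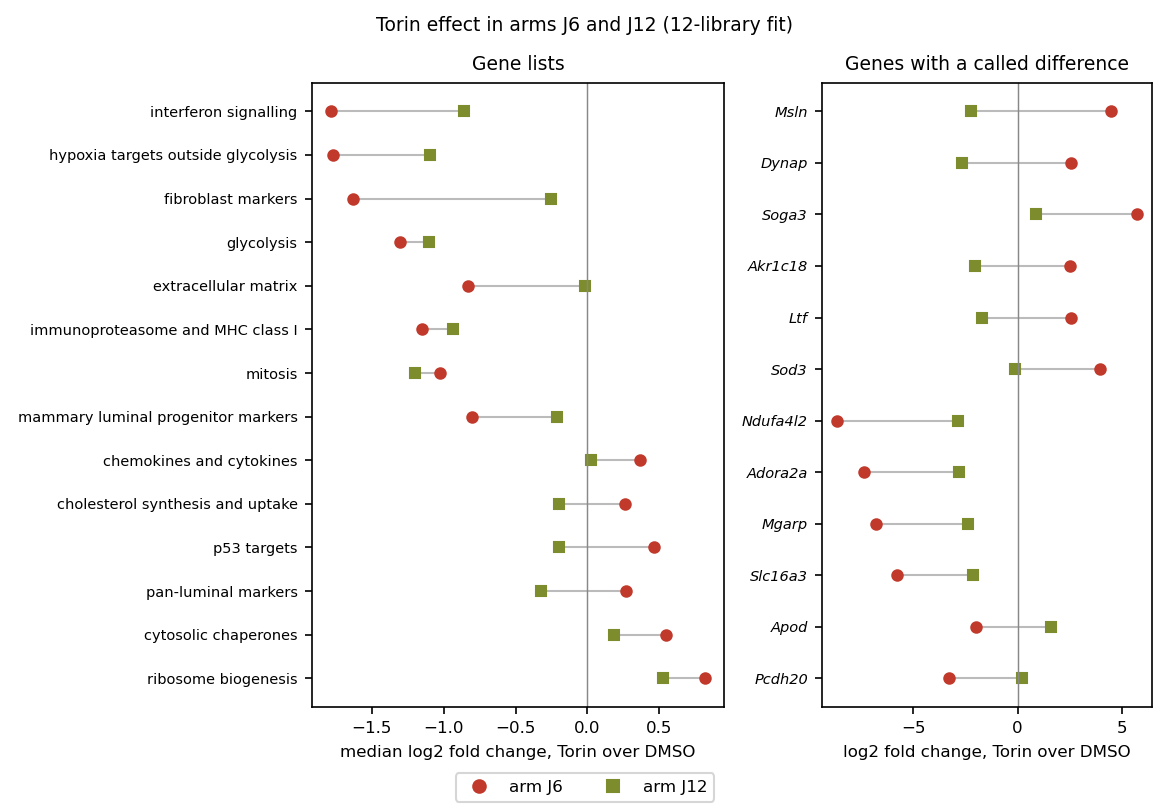
Torin effect in arm J6 (red circles) and arm J12 (green squares) in the fit of all 12 libraries, as the median log2 fold change of 14 gene lists (left) and the log2 fold change of the 12 genes with the largest called differences that met the rule for named genes (right). Msln, Dynap, Akr1c18 and Ltf lie above 0 in J6 and below 0 in J12, Apod the reverse, and Ndufa4l2, Adora2a, Mgarp and Slc16a3 lie below 0 in both and lower in J6.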

How the data were processed

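RNA of mammary organoids was sequenced from libraries made with a directional kit, per the labels' protocols. Per gene and library, the authors deposited whole-number counts and a second table of normalized values (unit: signal), which was used for alternative fits only. The build GRCm39 and the tools kallisto, DESeq2, cutadapt, Trim Galore, MultiQC and FastQC stand in the submitters' processing notes. Versions, the annotation and the treatment of reads shared between similar genes are not given in the sources used here. All deposited columns mapped to a sample.

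From the counts, genes were kept by edgeR's filterByExpr (16936 of 34144 features with a count), libraries were scaled by TMM, and the 3 Torin and 3 DMSO libraries of arm J6 were compared with edgeR 4.0.16's quasi-likelihood test in R 4.3.3, with Benjamini-Hochberg adjustment over all genes tested and a threshold of 0.05. SE is the log2 fold change divided by the square root of the test's F value. CPM was computed on the TMM-adjusted library total. Arms were compared by the difference of the Torin effects in a fit of all 12 libraries. Ratios of few counts carry 95% exact counting intervals, which cover counting error only. Without molecular identifiers, counts are not independent molecules.

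Genes were named by rule. They are the 15 largest rises and falls averaging at least 5 CPM whose groups do not overlap, up to 4 passed members of the lowest p per list role, fixed pathway genes, and the 6 largest arm differences in each direction. Others are marked as picked after their values were seen. The members and lists were chosen with earlier results of these data known. Same-numbered Torin and DMSO libraries did not deviate together, so no pairing was used. No 2 libraries were duplicates within sampling noise. DESeq2 1.42.0, limma 3.58.1 and other scalings and filters served as alternatives. The test was checked on simulated data with less spread between libraries than these and no outlying library. The check therefore does not cover the spread of Torin replicate 3. Results for some genes are not reported here.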

Additional observations from a re-analysis of the deposited data

Results flagged for a closer look

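The Torin effect differed between the arms, by edgeR's quasi-likelihood test of the difference with Benjamini-Hochberg adjustment over 18112 genes. It was higher in J6 for 1006 genes and lower in J6 for 911, each with 3 Torin and 3 DMSO libraries per arm. The named genes below had the largest differences in each direction.

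Among genes with a higher effect in J6, the surface glycoprotein Msln differed by 6.68 on the log2 scale (4.46 in J6, against -2.22 in J12). Dynap differed by 5.25 (2.57 in J6, against -2.68 in J12) and Soga3 by 4.85 (5.73 in J6, against 0.87 in J12). Akr1c18, a steroid reductase that inactivates progesterone, differed by 4.58 (2.52 in J6, against -2.06 in J12). The iron-binding Ltf differed by 4.28 and the superoxide dismutase Sod3 by 4.07.

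Among genes with a lower effect in J6, Ndufa4l2 differed by -5.76, the adenosine receptor Adora2a by -4.51, Mgarp by -4.41 and the lactate exporter Slc16a3 by -3.61. The lipid carrier Apod differed by -3.59 and the protocadherin Pcdh20 by -3.52 (-3.28 in J6, against 0.24 in J12). Batch, length and start of treatment cannot be told apart between the arms.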

How the results depend on the processing

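With a threshold of 0.01 on the adjusted p, 1353 genes rose and 1796 fell, 594 rose at least 2-fold, and the effect was higher in J6 than in J12 for 443 genes and lower for 399. Leaving out each library in turn gave 1615 to 3580 rises, 2162 to 3872 falls, 691 to 1049 rises and 1245 to 1635 falls of at least 2-fold, and 623 to 1235 genes higher and 596 to 1246 lower in J6. Counted at any fold, rises and falls were most without Torin replicate 3 and fewest without DMSO replicate 3. At 2-fold or more, rises were most without Torin replicate 2 and falls without Torin replicate 3, and both were fewest without DMSO replicate 2. The log2 fold changes of Tfeb and Foxo1, neither called, turned to -0.36 and -0.38 without Torin replicate 3 of J6 and were at most 0.48 and 0.44, without Torin replicate 1. Fewer libraries were fitted in each of these, and the cause was not tested beyond that.

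With a replicate block, 1960 genes rose and 2391 fell, and 4287 of the 5687 calls were kept in the same direction. Same-numbered libraries had correlations of 0.0815, -0.0447 and 0.0685, so the block is no pairing by design. Upper quartile scaling moved the median of all genes to -0.04, from 0.04 with TMM, and kept 4984 of the 5687 calls. DESeq2's Wald test kept 5400 and limma on the deposited normalized values 4869. The alternative with gene-length factors from the deposited tables was chosen after seeing the data and kept 4912. The 3 libraries per group and the spread of Torin replicate 3 limit which small changes can be called, and genes near the count filter rest on few reads.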
